A study of Mus musculus with 18 samples.

Results

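The genes described here are 9 transcripts known from mouse blood monocytes, taken by symbol from a fixed list: Ly6c2, Plac8, Chil3, Hp, Lyz2, S100a4, Vcan, Ace and Nr4a1. This list and the lists of other genes below were chosen with earlier results of these data known. The numbers of listed genes called are therefore not independent of those results. The table of 13043 genes holds 8 of the 9, and all 8 were among the 10597 genes tested; Vcan is not analysed here. The question was how much of each transcript was found in macrophages of the mouse brain, by where the cells sat and by where they came from. Bulk MARS-seq, a 3' RNA sequencing method that counts unique molecular identifiers (UMIs), was applied to 18 libraries of sorted cells. All recipients were wild type C57BL6/C mice, lethally irradiated and given donor marrow with the alleles Ms4a3-Cre, R26-TdTomato and Cx3cr1-gfp, and cells were taken 32 weeks later.

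The 5 groups were monocyte-derived leptomeningeal macrophages (4 libraries), HSC-derived leptomeningeal macrophages (2 libraries), monocyte-derived microglia (4 libraries), HSC-derived microglia (4 libraries) and host microglia (4 libraries). HSC stands for haematopoietic stem cell. Donor cells with GFP and TdTomato were sorted as monocyte-derived, donor cells with GFP alone as HSC-derived, and cells without colour as host. Ms4a3-Cre acts in granulocyte-monocyte progenitors, so that the TdTomato mark records passage through that stage and is shared by granulocytes; GFP reports the fractalkine receptor gene Cx3cr1. Host cells carried neither reporter. Host microglia were in the brain when the recipients were irradiated, and donor cells were given afterwards. Direct irradiation therefore cannot be told apart from host or donor origin, and no unirradiated brain was compared here. Leptomeningeal cells were washed off the digested brain surface and microglia were taken from the remaining tissue on Percoll, in both cases with actinomycin D to stop new transcription. Up to 100000 cells were sorted per library. No library of blood monocytes was analysed here, so the levels say how much transcript the brain macrophages held, and whether it was kept from the monocyte stage was not tested.

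Mouse blood holds 2 main kinds of monocyte. Classical monocytes carry the surface antigen Ly6C at a high level, leave the bone marrow by way of the chemokine receptor CCR2 and give rise to macrophages in tissues. Non-classical monocytes have little Ly6C, patrol the vessel wall and depend on the nuclear receptor Nr4a1. Ly6c2 encodes a GPI-anchored part of the Ly6C antigen. Plac8, Chil3, Hp, S100a4 and Vcan are abundant in classical monocytes, Lyz2 is shared by monocytes, macrophages and neutrophils, and Nr4a1 and Ace are higher in non-classical than in classical monocytes. Chil3, Hp and Plac8 are also expressed in the neutrophil lineage, and Ly6c2 in some T and NK cells.

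The sequences just upstream of the start sites are shown for Ly6c2 and Lyz2 beside those of their nearest copies, Ly6c1 and Lyz1, and for Chil3, the member with the greatest contrast between groups. These bases lie before an annotated start, so their likeness says nothing about how 3' reads are divided between the copies. Each window is 250 bases before the annotated start, on the minus strand, from RefSeq on GRCm38.p6. Capitals mark 2 motifs, searched on both strands: AGGAAGT, which holds the core bound by the myeloid factor PU.1, and TTGCNNAA, bound by C/EBP factors; the 2 do not overlap in these windows.
Ly6c2 (chr15:75111972-75112221): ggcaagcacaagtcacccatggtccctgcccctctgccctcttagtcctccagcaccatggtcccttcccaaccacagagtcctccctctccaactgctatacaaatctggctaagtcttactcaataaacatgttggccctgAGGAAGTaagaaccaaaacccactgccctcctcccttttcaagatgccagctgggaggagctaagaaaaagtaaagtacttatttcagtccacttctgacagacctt
Ly6c1 (chr15:75048838-75049087): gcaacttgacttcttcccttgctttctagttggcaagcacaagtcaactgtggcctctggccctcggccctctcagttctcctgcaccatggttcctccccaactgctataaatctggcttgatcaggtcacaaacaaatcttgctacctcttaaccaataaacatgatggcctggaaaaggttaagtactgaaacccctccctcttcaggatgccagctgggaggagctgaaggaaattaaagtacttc
Lyz2 (chr10:117282273-117282522): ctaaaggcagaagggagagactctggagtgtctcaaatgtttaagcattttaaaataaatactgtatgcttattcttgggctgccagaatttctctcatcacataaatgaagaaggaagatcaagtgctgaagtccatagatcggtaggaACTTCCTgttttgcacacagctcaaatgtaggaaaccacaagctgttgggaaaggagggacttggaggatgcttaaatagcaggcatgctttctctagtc
Lyz1 (chr10:117292869-117293118): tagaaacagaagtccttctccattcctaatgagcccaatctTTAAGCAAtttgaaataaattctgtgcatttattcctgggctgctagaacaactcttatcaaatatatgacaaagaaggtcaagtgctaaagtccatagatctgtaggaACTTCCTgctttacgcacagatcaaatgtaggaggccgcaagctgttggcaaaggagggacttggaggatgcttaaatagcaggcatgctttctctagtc
Chil3 (chr3:106167565-106167814): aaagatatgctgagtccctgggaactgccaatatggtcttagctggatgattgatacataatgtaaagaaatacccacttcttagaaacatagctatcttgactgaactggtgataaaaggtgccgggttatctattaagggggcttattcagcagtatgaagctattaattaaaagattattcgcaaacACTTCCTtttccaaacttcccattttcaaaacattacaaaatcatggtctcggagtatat
In a global alignment the windows shown for Ly6c2 and Ly6c1 were identical at 57.7% of aligned positions, and those of Lyz2 and Lyz1 at 79.4%. Ly6c2 and Ly6c1 each have a second annotated start; the pairs with a second start were identical at 45.0% to 49.6%, and the windows of Ly6c2 and the unrelated Lyz2 at 41.1% and 43.3%. The window of the second start holds AGGAAGT in Ly6c1 too, beginning 126 bases before the start, and 2 times in Ly6c2. Lyz2 and Lyz1 hold AGGAAGT at the same distance from the start, beginning 100 bases before it. Of the 7 members in both the count table and the promoter table (all found but Hp), 3 held AGGAAGT in the window of an annotated start, namely Ly6c2, Lyz2 and Chil3, and the motif was in 7.69% of all 32851 windows. TTGCNNAA was in a window of 1 member, Plac8, and in 9.56% of all windows. A member was counted if any of its windows held the motif, whereas the percentages are over single windows, so these are unlike measures. AAAGGTCA, the element bound by Nr4a1 (1.34% of windows), and the cyclic AMP response element TGACGTCA (1.55% of windows) were in no window of the members. These matches describe letters and are not binding sites.

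The genes lie at chr15:75108158-75111970 (Ly6c2, minus strand), chr5:100553725-100572245 (Plac8, minus), chr3:106147554-106167564 (Chil3, minus), chr8:109575128-109579172 (Hp, minus), chr10:117277331-117282321 (Lyz2, minus), chr3:90603771-90606045 (S100a4, plus), chr11:105967945-105989964 (Ace, plus) and chr15:101254269-101274795 (Nr4a1, plus) in GENCODE vM21 on mm10.

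Libraries held between 154727 and 2440234 UMIs, and a count of 3 in 1 library was worth 1.05 CPM in the deepest and 23.1 CPM in the shallowest (CPM, counts after scaling for library size). The shallowest were HSC-derived microglia replicates 3 and 4, with 264795 and 317872 UMIs, and HSC-derived leptomeningeal replicate 2, with 154727. These 3 libraries also had the highest sums of ribosomal protein transcripts of their groups. Results for the monocyte genes that include these libraries are therefore given with and without them where a call changed. For the lists of other genes, results without these libraries are not given, so those calls are not shown to hold without them. The microglial receptor gene P2ry12 had 239 to 626 CPM in the leptomeningeal libraries, 1049 to 1729 CPM in donor-derived microglia and 4126 to 5150 CPM in host microglia. The macrophage mannose receptor gene Mrc1, a marker of border-associated macrophages, had 1132 to 2195 CPM in the leptomeningeal libraries, 538 to 660 CPM in donor-derived microglia and 24.2 to 28.6 CPM in host microglia. In bulk libraries of this kind, fewer cells with a transcript and less transcript per cell cannot be told apart.

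All 8 monocyte genes were higher in monocyte-derived leptomeningeal macrophages than in monocyte-derived microglia, where 19.0% of all tested genes were called higher and 16.3% lower (edgeR quasi-likelihood test, adjusted p under 0.05). In HSC-derived cells 4 of the 8 (Ly6c2, Lyz2, S100a4 and Nr4a1) were higher in leptomeningeal macrophages than in microglia and none was called lower, against 5.75% of genes higher and 3.97% lower. Between the leptomeningeal groups 3 of the 8 (Ly6c2, Ace and Hp) were higher in monocyte-derived than in HSC-derived cells and none lower, against 0.16% of genes higher and 0.142% lower. Against host microglia, 5 (Ly6c2, Plac8, Hp, Lyz2 and S100a4) were higher in monocyte-derived microglia and none lower, with 15.1% of genes called in each direction. In HSC-derived microglia 3 (Ly6c2, Lyz2 and S100a4) were higher and 1 (Ace) lower than in host microglia, against 16.3% higher and 13.1% lower. Between monocyte-derived and HSC-derived microglia none of the 8 was called by edgeR, where 0.123% of genes were higher and 1.76% lower. Of the 8, 5 had an unadjusted p under 0.05, and DESeq2 called 1, Lyz2. Outside monocyte-derived leptomeningeal macrophages Ace, Hp and Chil3 had at most 7.01, 7.70 and 3.31 CPM. They passed the filter on low counts through that group, so their tests are not independent of the filter. With no such filter Ace, Hp and Chil3 were still higher there than in monocyte-derived microglia (adjusted p = 5.4e-10, 8.0e-10 and 0.00315 by edgeR). Ace and Hp also kept their calls between the leptomeningeal groups (0.00147 and 0.0137).

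The median log2 fold change of the members was 3.07 for monocyte-derived leptomeningeal macrophages over monocyte-derived microglia, against -0.04 for all tested genes. It was 1.99 between the leptomeningeal groups, against 0.07 for all tested genes. In every comparison but monocyte-derived leptomeningeal macrophages over monocyte-derived microglia, a group had no count for some gene. Such fitted folds depend on the prior count, and the median was also taken with those folds at their bound of 3 counts over the group. Between the leptomeningeal groups, where Ace and Chil3 had no count in HSC-derived cells, the bounded median was also 1.99 (8 members). The fitted and the bounded median were 2.16 and 2.29 for HSC-derived leptomeningeal macrophages over HSC-derived microglia (5 members with a bounded fold). They were 2.81 and 2.43 for monocyte-derived over host microglia (8 members) and 0.92 and 1.93 for HSC-derived over host microglia (6 members). For monocyte-derived over HSC-derived microglia they were 1.53 and 0.05 (8 members); the lower value is set by bounds for Hp, Chil3 and Ace put in as folds, and does not show a lack of difference. The medians over all tested genes were -0.06, 0.01, 0.00 and 0.02 in these comparisons. Comparisons that share a group share its libraries and are not independent of each other. Without the 3 shallow libraries, 6 members were called in monocyte-derived and 5 in HSC-derived microglia over host microglia, Nr4a1 being added in each, and the other comparisons kept their numbers of calls.

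**Figure D1:**
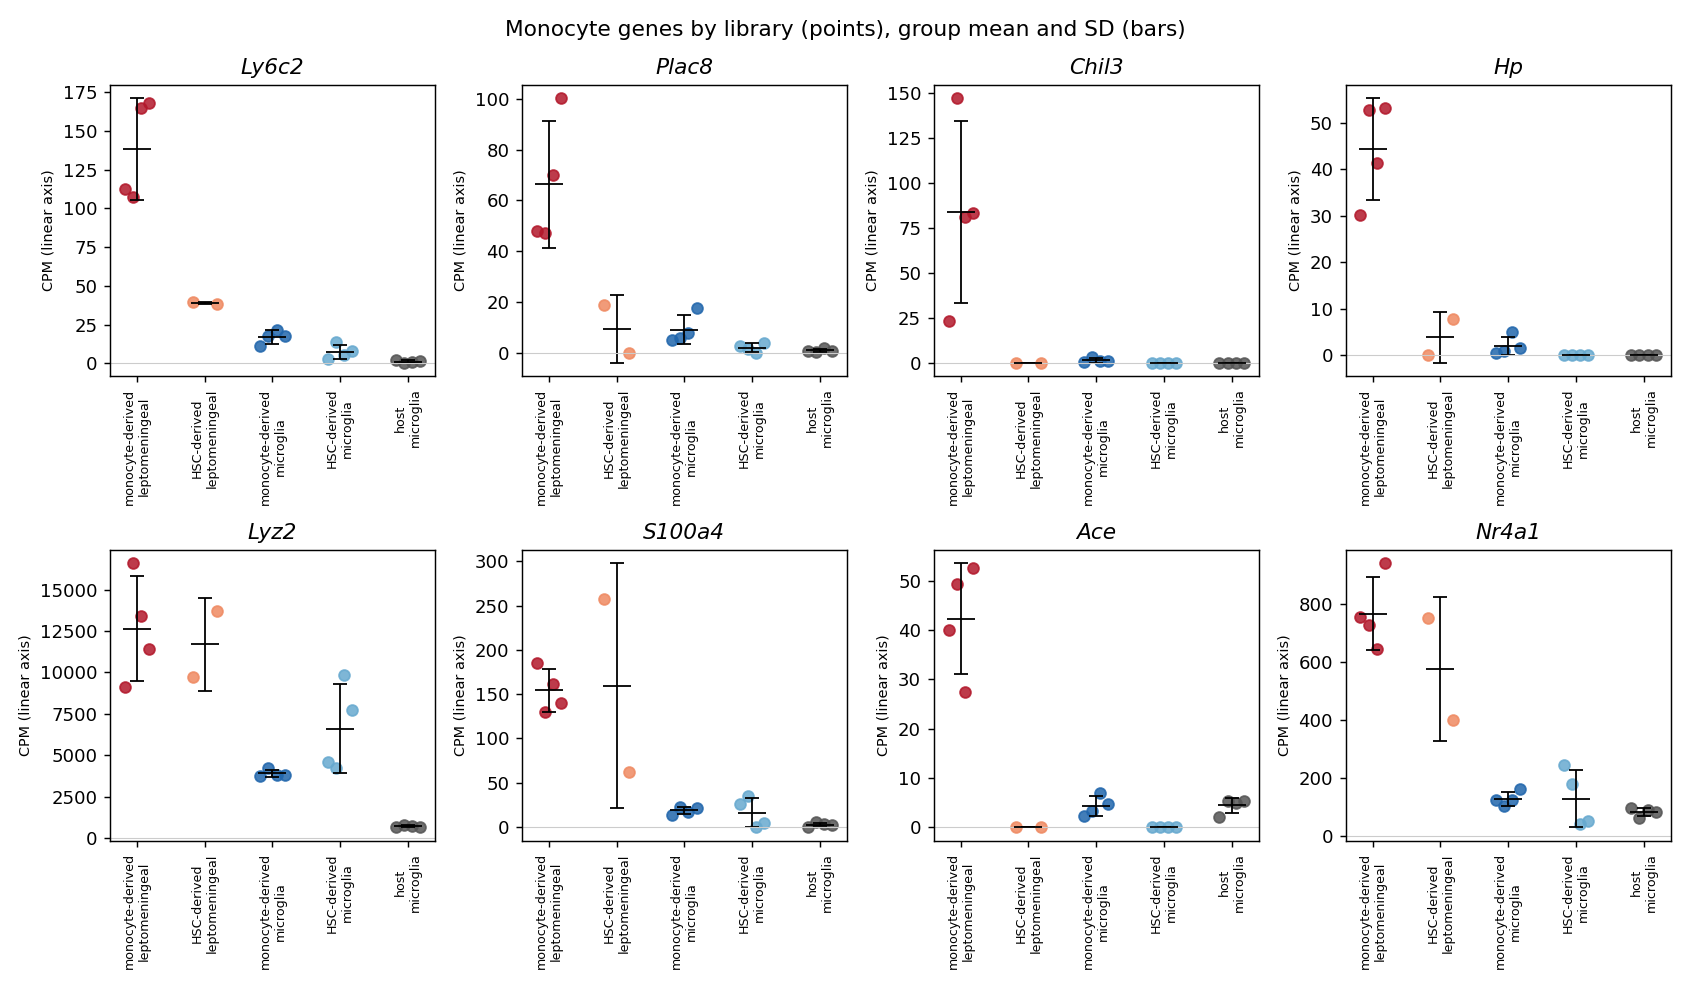
CPM of the 8 monocyte genes in each of the 18 libraries (points; linear axes that differ between panels), with the group mean and SD. For every gene the 4 monocyte-derived leptomeningeal libraries lie above the 4 monocyte-derived microglia libraries, while Chil3 and Ace are at 0 in both HSC-derived groups.

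Ly6c2 followed both compartment and origin in the leptomeninges. Monocyte-derived leptomeningeal libraries had 112, 108, 165 and 168 CPM, and HSC-derived leptomeningeal libraries 39.5 and 38.5 CPM, from 23 and 5 counts. Monocyte-derived microglia had 10.95, 17.4, 21.7 and 17.6 CPM and HSC-derived microglia 2.83, 13.7, 5.12 and 7.83 CPM, the last from 2, 10, 1 and 2 counts. Host microglia had 2.15, 0.455, 0.702 and 1.34 CPM, from 1 to 3 counts each. The leptomeningeal groups did not overlap with each other or with any microglia group, and the lowest donor-derived library lay above the highest host library.

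The log2 fold change of Ly6c2 in monocyte-derived over HSC-derived leptomeningeal macrophages was 1.83 (SE 0.33, adjusted p = 0.00539 by edgeR, higher in 4 of 4 libraries). Over monocyte-derived microglia, monocyte-derived leptomeningeal macrophages were higher by 3.06 (SE 0.21, adjusted p = 7.6e-14). The matching difference between HSC-derived leptomeningeal macrophages and HSC-derived microglia was 2.29 (SE 0.52, adjusted p = 0.00262). These compartment differences were not distinguishable in the test of their difference, 0.77 (SE 0.60, adjusted p = 0.793 by edgeR). Over host microglia, Ly6c2 was higher by 3.91 in monocyte-derived microglia (SE 0.43, adjusted p = 3.9e-09) and by 2.85 in HSC-derived microglia (SE 0.66, adjusted p = 0.00106). The call in HSC-derived microglia rested on replicate 2: without it the log2 fold change was 2.00 with an adjusted p of 0.0971 by edgeR. Monocyte-derived microglia lay above HSC-derived microglia by 1.06 (SE 0.43), which did not pass (adjusted p = 0.195), but did without HSC-derived replicate 2 (1.91, adjusted p = 0.0477).

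Transcripts of T and NK cells moved with Ly6c2. The summed level of the 11 of 12 listed markers found in the table was 514 to 1010 CPM in monocyte-derived and 472 and 300.4 CPM in HSC-derived leptomeningeal libraries. It was 127 to 174 CPM in monocyte-derived microglia, 87.8, 173, 0 and 19.6 CPM in HSC-derived microglia and 25.1 to 58.3 CPM in host microglia. The highest HSC-derived microglia library was the same one, replicate 2, in both measures, whereas replicate 3 had Ly6c2 at 5.12 CPM, from 1 count, with the T and NK cell genes at 0. All 11 T and NK cell markers were higher in monocyte-derived leptomeningeal macrophages than in monocyte-derived microglia, where 19.0% of all tested genes were higher. None of the 11 was called between the leptomeningeal groups, where Ly6c2 was. The part of T and NK cells in the Ly6c2 levels was not tested. Ly6c1, the copy of Ly6c2 that is known from endothelial cells, had at most 3 counts in any library. How the authors' counting divided reads between Ly6c1 and Ly6c2 is not given, so the level of Ly6c1 is uncertain.

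Plac8, which encodes a small cysteine-rich protein, was also highest in monocyte-derived leptomeningeal macrophages, with fewer counts than Ly6c2. It had 47.8, 47.2, 70.1 and 100.3 CPM in monocyte-derived leptomeningeal libraries, and 18.9 and 0 CPM in HSC-derived ones. It had 5.19, 5.79, 7.71 and 17.6 CPM in monocyte-derived microglia and 2.83, 1.37, 0 and 3.91 CPM in HSC-derived microglia. Host microglia had 0.716, 0.455, 1.75 and 0.67 CPM. The monocyte-derived groups lay above the HSC-derived groups of the same compartment without overlap, and HSC-derived and host microglia overlapped. Plac8 rose in monocyte-derived leptomeningeal macrophages over monocyte-derived microglia by 2.92 (SE 0.31, adjusted p = 1.8e-08 by edgeR), and in monocyte-derived over host microglia by 3.01 (SE 0.58, adjusted p = 0.000188). The difference between the leptomeningeal groups, 2.15 (SE 0.54), did not pass (adjusted p = 0.0817), although it did without monocyte-derived leptomeningeal replicate 1 (adjusted p = 0.0335). In HSC-derived leptomeningeal macrophages over HSC-derived microglia it was 2.77 (SE 1.00, adjusted p = 0.0813 by edgeR), and 3.12 with an adjusted p of 0.0471 without HSC-derived leptomeningeal replicate 2, which had no count. All 11 Plac8 counts of that group came from replicate 1, and without replicate 1 the direction turned (-4.44, adjusted p = 0.749), so no direction is read from this comparison.

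Chil3, a secreted chitinase-like protein also called Ym1, was found mainly in monocyte-derived leptomeningeal macrophages. Their libraries had 23.2, 147, 81.0 and 83.5 CPM, with replicate 1 the lowest, and both HSC-derived leptomeningeal libraries had 0. Monocyte-derived microglia had 0.576, 3.31, 0.701 and 0.798 CPM, which was 7 counts in all, and no count was found in the 4 HSC-derived or the 4 host microglia libraries. Monocyte-derived leptomeningeal macrophages were higher than monocyte-derived microglia by 5.91 on the log2 scale (SE 0.92, adjusted p = 0.00263 by edgeR). Against HSC-derived leptomeningeal macrophages they were at least 18.4-fold higher, taking 3 counts over that group. Chil3 did not pass the edgeR test in that comparison (adjusted p = 0.352); without monocyte-derived replicate 1 the adjusted p was 5.3e-05. Against host microglia, monocyte-derived microglia were at least 3.29-fold higher, with no call by edgeR (adjusted p = 0.402) and a call by DESeq2 (adjusted p = 0.0333).

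Hp, haptoglobin, which binds free haemoglobin, had 30.2, 52.7, 41.4 and 53.2 CPM in monocyte-derived leptomeningeal libraries, and 0 and 7.70 CPM, from 0 and 1 counts, in HSC-derived ones. Monocyte-derived microglia had 0.576, 0.828, 4.90 and 1.60 CPM, or 11 counts in all. HSC-derived and host microglia had no count in any library. The ratio of monocyte-derived to HSC-derived leptomeningeal levels was 31.1 (exact 95% counting interval 5.52 to 1232, adjusted p = 0.0167 by edgeR). Hp rose in monocyte-derived leptomeningeal macrophages over monocyte-derived microglia by 4.42 (SE 0.41, adjusted p = 3.0e-09), and monocyte-derived microglia were at least 5.18-fold higher than host microglia (adjusted p = 0.00434). Against HSC-derived microglia the bound was 1.23-fold, since 3 counts there were worth 1.59 CPM over the group, and edgeR made no call (adjusted p = 0.276).

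Several neutrophil transcripts moved with Chil3 and Hp, but not all. Of 12 listed markers 10 were in the table, and their summed level was 1372, 2719, 2388 and 3110 CPM in monocyte-derived leptomeningeal libraries, with replicate 1 the lowest as for Chil3 and Hp. The sum was 326 and 170 CPM in HSC-derived leptomeningeal macrophages, where Camp, Ngp, Ltf, Lcn2 and Mmp8 were at 0. It was 121 to 189 CPM in monocyte-derived microglia, 62.6 to 128 CPM in HSC-derived microglia and 228 to 376 CPM in host microglia, where S100a8, S100a9, Retnlg, Camp and Ngp were among the 8 markers at 0. In microglia these sums were mostly or nearly all 1 gene, Csf3r, the G-CSF receptor, with 108 to 136 CPM in monocyte-derived, 61.5 to 126 CPM in HSC-derived and 228 to 376 CPM in host microglia. Csf3r was lower in monocyte-derived than in host microglia (-1.28, adjusted p = 2.0e-07 by edgeR), whereas S100a9 had 6.31 to 35.9 CPM in monocyte-derived and no count in HSC-derived or host microglia. S100a8, a subunit of calprotectin, had 246, 430.5, 418 and 477 CPM in monocyte-derived leptomeningeal libraries, against 1 count in each HSC-derived one. Camp, the cathelicidin of neutrophil granules, had 202, 406, 277 and 427 CPM, against no count in HSC-derived ones. Mmp9, of the same list, did not follow Chil3 and Hp. It had 276.6 and 69.3 CPM in HSC-derived leptomeningeal libraries, most of the first sum there, and 112 to 160 CPM in monocyte-derived ones. In HSC-derived leptomeningeal macrophages Mmp9 was higher than in HSC-derived microglia (5.595, adjusted p = 6.4e-06 by edgeR). Between the leptomeningeal groups 4 of 9 tested neutrophil markers were called higher in monocyte-derived cells and none lower, against 0.16% of all tested genes higher and 0.142% lower. The part of neutrophil RNA in the Chil3, Hp and Plac8 levels was not tested.

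Lyz2, lysozyme M, differed little by origin in the leptomeninges and was high in all donor-derived cells. It had 9150, 16620, 13430 and 11410 CPM in monocyte-derived and 9707 and 13700 CPM in HSC-derived leptomeningeal libraries, which overlapped. Monocyte-derived microglia had 3762, 4227, 3830 and 3781 CPM and HSC-derived microglia 4599, 4201, 9843 and 7730 CPM. Host microglia had 654, 785, 693 and 652 CPM, below every donor-derived library. Over host microglia Lyz2 was higher by 2.49 in monocyte-derived microglia (SE 0.23, adjusted p = 9.2e-11 by edgeR) and by 3.24 in HSC-derived microglia (SE 0.24, adjusted p = 3.9e-13).

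Lyz2 rose in monocyte-derived leptomeningeal macrophages over monocyte-derived microglia by 1.70 (SE 0.22, adjusted p = 2.2e-07 by edgeR). In HSC-derived leptomeningeal macrophages over HSC-derived microglia the log2 fold change was 0.83 (SE 0.26, adjusted p = 0.0373), and that call was lost without any 1 of HSC-derived microglia replicates 1 or 2 or HSC-derived leptomeningeal replicates 1 or 2 (adjusted p 0.0858 to 0.353), and with DESeq2 (adjusted p = 0.0511). The difference of these differences was 0.87 (SE 0.35), with an unadjusted p of 0.0181 and an adjusted p of 0.539. Monocyte-derived lay below HSC-derived microglia by -0.75 on the log2 scale (SE 0.22, adjusted p = 0.0643 by edgeR), and passed with DESeq2 (-0.80, adjusted p = 0.0265) and without HSC-derived replicate 1 or 2 (adjusted p 0.0122 and 0.00799). Without the 3 shallow libraries it was -0.16 (adjusted p = 0.862 by edgeR), the log2 fold change in HSC-derived leptomeningeal macrophages over HSC-derived microglia was 1.15 (adjusted p = 0.000193), and that in HSC-derived over host microglia was 2.66. The shallow HSC-derived replicates 3 and 4 were the high ones for Lyz2, and their ribosomal protein transcripts summed to 191600 and 166900 CPM, against 85040 and 84650 CPM in replicates 1 and 2; the part of library quality was not tested. Lyz1, the copy of Lyz2, had 0 to 53 counts per library; how the authors' counting divided reads between the copies is not given, so the level of Lyz1 is uncertain.

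S100a4, a calcium-binding protein of motile cells, was higher in leptomeningeal macrophages than in microglia in both origins. Monocyte-derived leptomeningeal libraries had 186, 130, 161 and 140 CPM and HSC-derived ones 258 and 61.6 CPM. Monocyte-derived microglia had 13.3, 22.4, 16.8 and 21.5 CPM and HSC-derived microglia 25.5, 34.4, 0 and 3.91 CPM, the last 2 from the shallow libraries. Host microglia had 0, 5.00, 3.16 and 2.01 CPM. Both leptomeningeal groups lay above every microglia library, and HSC-derived microglia overlapped both other microglia groups. S100a4 was higher in leptomeningeal macrophages than in microglia by 3.09 among monocyte-derived cells (SE 0.36, adjusted p = 5.7e-06 by edgeR) and by 3.11 among HSC-derived cells (SE 0.53, adjusted p = 0.00101), and the difference between these values was -0.03 (SE 0.72, adjusted p = 1.00). Without HSC-derived leptomeningeal replicate 1 the value among HSC-derived cells was 1.37 (adjusted p = 0.455 by edgeR) and the difference 1.71, so the compartment differences are not shown to be alike. Over host microglia it was higher by 2.62 in monocyte-derived microglia (SE 0.59, adjusted p = 0.00302) and by 2.92 in HSC-derived microglia (SE 0.71, adjusted p = 0.0052). The last call was lost without HSC-derived microglia replicate 2 (2.42, adjusted p = 0.0565 by edgeR). Cd209a, a lectin of monocyte-derived dendritic cells, was among the genes nearest to S100a4 in pattern (Pearson's r 0.961 over the 18 libraries). It had 162, 204, 196 and 231.5 CPM in monocyte-derived and 375 and 108 CPM in HSC-derived leptomeningeal libraries. It had 4.04, 7.45, 22.4 and 11.97 CPM in monocyte-derived microglia and 45.3, 55.0, 0 and 0 CPM in HSC-derived microglia. Host microglia had 0 to 0.351 CPM. Not all dendritic cell markers followed S100a4. Of the 7 in the table, 4 were called higher and 2 lower in monocyte-derived leptomeningeal macrophages than in monocyte-derived microglia. Tcf4 had 127.5 to 218.5 CPM in the former and 199.5 to 231.7 CPM in the latter. Cox6a2 was lower in each library of the former than in any of the latter. The part of dendritic cells in the S100a4 level was not tested.

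**Figure D2:**
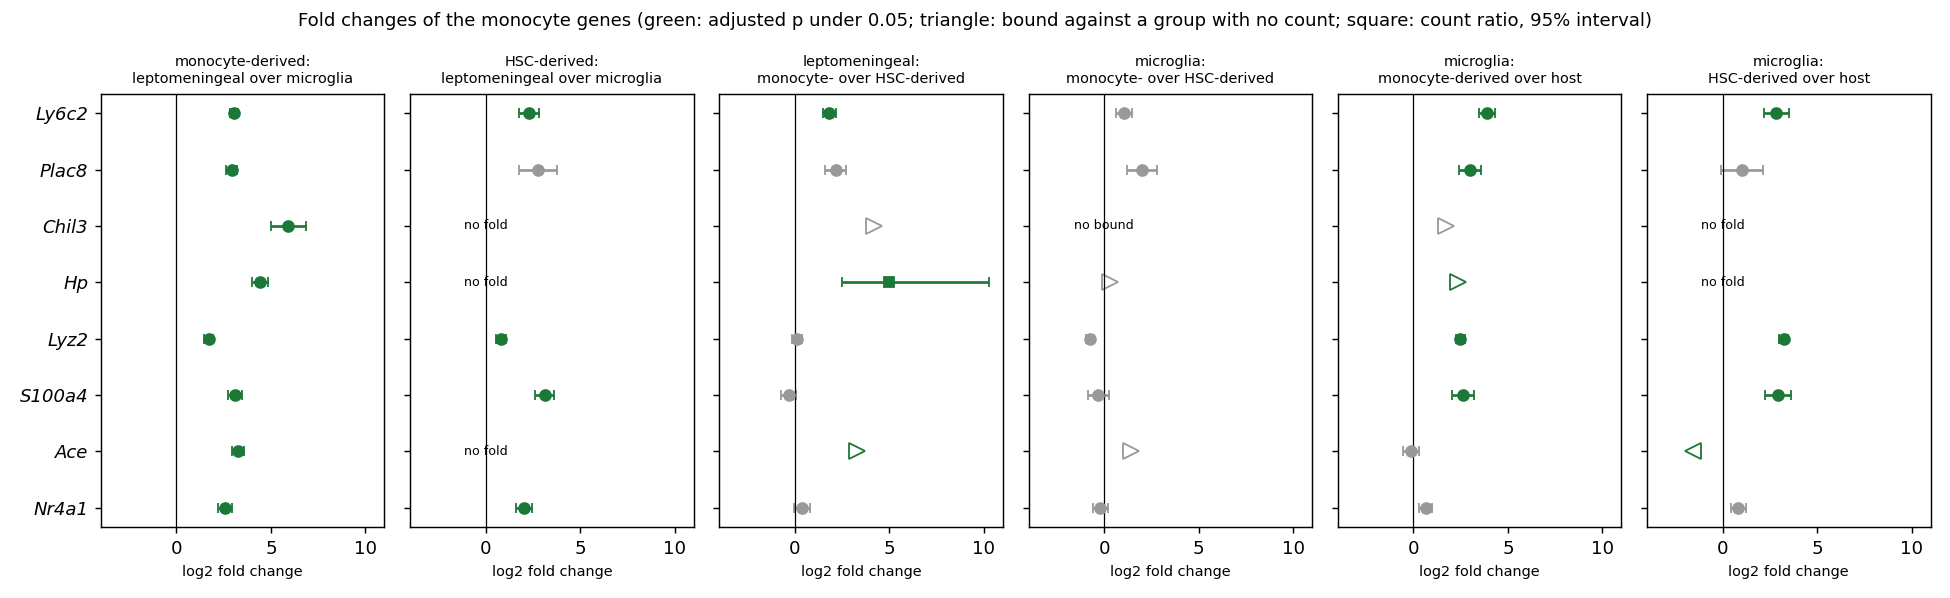
Log2 fold change of the 8 genes in 6 comparisons (points with SE; squares, count ratio with exact 95% interval; triangles, bound against a group with no count, pointing away from it; green, adjusted p under 0.05 by edgeR; grey, not called). All 8 points are green in the first panel, for monocyte-derived leptomeningeal macrophages over monocyte-derived microglia, with values of 1.70 to 5.91, and none is green between the donor-derived microglia groups.

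Ace, the angiotensin-converting enzyme, was found in all monocyte-derived and host libraries and in no HSC-derived library. Monocyte-derived leptomeningeal libraries had 40.0, 49.4, 27.4 and 52.5 CPM, and both HSC-derived leptomeningeal libraries had 0. Monocyte-derived microglia had 2.31, 3.31, 7.01 and 4.79 CPM, HSC-derived microglia had 0 in all 4 libraries, and host microglia had 2.15, 5.46, 4.92 and 5.36 CPM. Monocyte-derived and host microglia overlapped. Over HSC-derived leptomeningeal macrophages, monocyte-derived ones were at least 9.82-fold higher, taking 3 counts over the HSC-derived group (adjusted p = 0.00183 by edgeR). Over monocyte-derived microglia they were higher by 3.26 on the log2 scale (SE 0.32, adjusted p = 2.1e-09).

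Among microglia, Ace was at least 2.93-fold lower in HSC-derived than in host microglia (adjusted p = 0.00478 by edgeR). Monocyte-derived and host microglia differed by -0.11 (SE 0.42, adjusted p = 0.886), and monocyte-derived microglia were at least 2.68-fold higher than HSC-derived microglia without passing the test (adjusted p = 0.0592). Ace is also known from choroid plexus epithelium. The summed level of the 6 of 7 choroid plexus markers in the table was 2079, 3525, 2528 and 2787 CPM in host microglia, lowest in replicate 1 and highest in replicate 2 as for Ace, against 6.31 to 161 CPM in monocyte-derived and 13.7 to 482 CPM in HSC-derived microglia. In the leptomeningeal libraries that sum was 17.6 to 211 CPM in monocyte-derived and 312.6 and 53.9 CPM in HSC-derived cells, where Ace was at 0. The part of choroid plexus RNA in the host level was not tested.

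Nr4a1, an orphan nuclear receptor that is also an immediate early gene, was higher in leptomeningeal macrophages than in microglia in both origins. Monocyte-derived leptomeningeal libraries had 755, 730.3, 646 and 944 CPM and HSC-derived ones 752 and 400.5 CPM. Monocyte-derived microglia had 124, 105, 125 and 163 CPM, HSC-derived microglia 244, 181, 41.0 and 50.9 CPM, and host microglia 98.1, 62.7, 89.9 and 81.7 CPM. Every leptomeningeal library lay above every microglia library; the leptomeningeal groups overlapped, monocyte-derived lay above host microglia, and HSC-derived microglia spanned both. Nr4a1 was higher in leptomeningeal macrophages by 2.57 among monocyte-derived cells (SE 0.35, adjusted p = 4.1e-05 by edgeR) and by 2.02 among HSC-derived cells (SE 0.44, adjusted p = 0.00775). The difference between these, 0.55 (SE 0.56), did not pass (adjusted p = 0.867). Over host microglia the values were 0.64 in monocyte-derived (SE 0.35, adjusted p = 0.198) and 0.84 in HSC-derived microglia (SE 0.38, adjusted p = 0.114). Without the 3 shallow libraries they were 0.66 (adjusted p = 0.000933 by edgeR) and 1.36 (adjusted p = 1.6e-06).

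Immediate early genes moved with Nr4a1. Their 14 listed members summed to 16940 to 22100 CPM in monocyte-derived and 16330 and 8218 CPM in HSC-derived leptomeningeal libraries, and HSC-derived replicate 2 was the lower in both measures. The sum was 3516 to 4361 CPM in monocyte-derived microglia, 5003, 5038, 2536 and 2470 CPM in HSC-derived microglia and 2805 to 4300 CPM in host microglia. All 14 were higher in monocyte-derived leptomeningeal macrophages than in monocyte-derived microglia, against 19.0% of all tested genes. In HSC-derived leptomeningeal macrophages 12 of 14 were higher than in HSC-derived microglia, against 5.75% of all tested genes. The compartments were prepared by different digestion steps, and the part of that handling in the Nr4a1 level cannot be told apart from the compartment. Of the related receptors, Nr4a2 was higher in monocyte-derived leptomeningeal macrophages than in monocyte-derived microglia by 2.67 (adjusted p = 1.1e-06 by edgeR) and Nr4a3 by 3.26 (adjusted p = 2.7e-07).

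**Figure D3:**
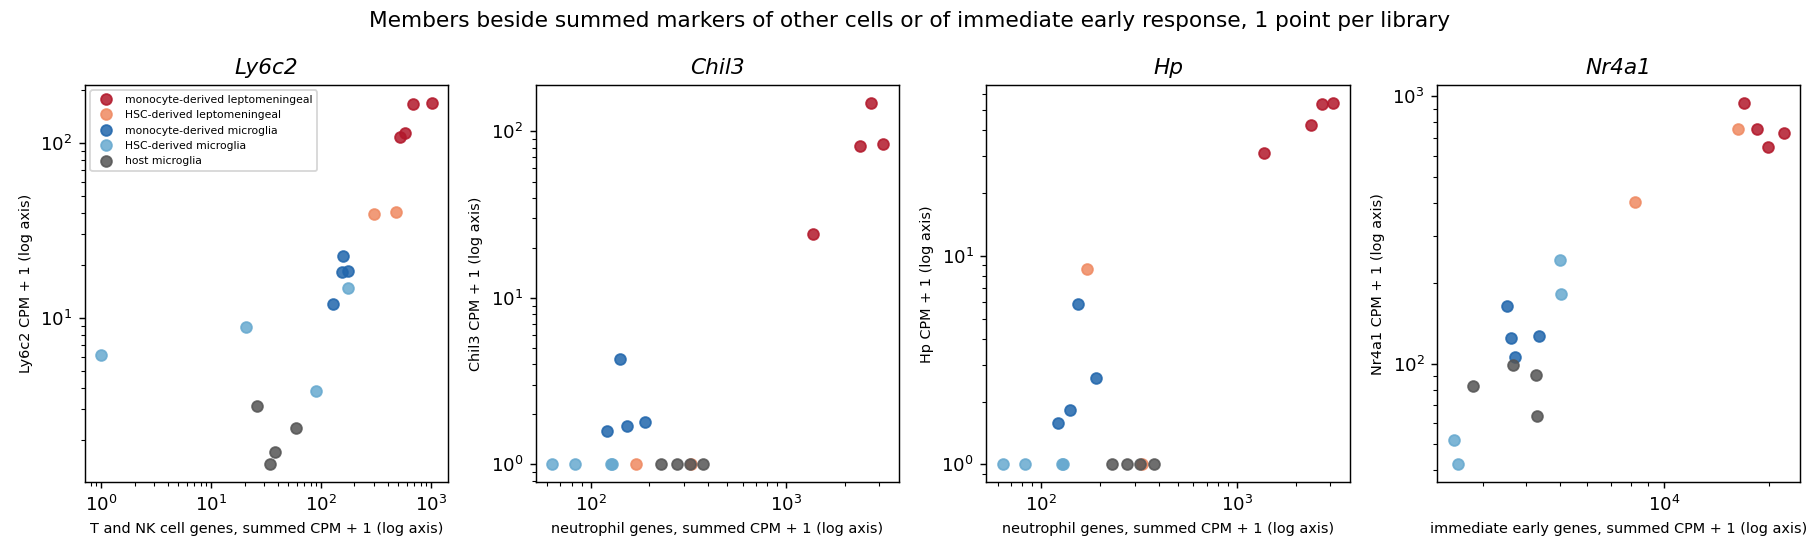
CPM + 1 of Ly6c2, Chil3, Hp and Nr4a1 (log axes) against the summed CPM + 1 of T and NK cell, neutrophil, neutrophil and immediate early markers, 1 point per library, coloured by group. The 4 monocyte-derived leptomeningeal libraries have the highest neutrophil sums, 1372 to 3110 CPM, and the highest Chil3 and Hp levels.

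The compartment difference within each origin was tested against that of the other origin for all genes, and none of the 8 members was called by edgeR, against 0.0566% of genes higher and 0% lower; 1 member, Lyz2, had an unadjusted p under 0.05, and DESeq2, with or without its filter on mean counts, called none. For Ace and Chil3 this difference has no value, since both HSC-derived groups were at 0. Calls that involve HSC-derived leptomeningeal macrophages all needed replicate 1 of that group, the deeper of its 2 libraries; without it 1 library is left, which is assumed to vary like the other groups, and none of the 8 was called in either comparison. For some genes the log2 fold change stayed as large: between the leptomeningeal groups Ly6c2 was at 1.95 (adjusted p = 0.107 by edgeR) and Ace was still at 0 in the library left (adjusted p = 0.107), and in HSC-derived leptomeningeal macrophages over HSC-derived microglia Ly6c2 was at 2.18 (adjusted p = 0.215) and Lyz2 at 0.97 (adjusted p = 0.0858). For others it was smaller: Hp between the leptomeningeal groups (2.59, adjusted p = 0.259 by edgeR, against the library with 1 count), and Nr4a1 (1.34, adjusted p = 0.286) and S100a4 (1.37, adjusted p = 0.455) in HSC-derived leptomeningeal macrophages over HSC-derived microglia.

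Other genes of classical monocytes were counted from a list of 20, of which 19 were tested. In monocyte-derived leptomeningeal macrophages over monocyte-derived microglia 18 were higher and none lower, with a median log2 fold change of 3.34. In HSC-derived leptomeningeal macrophages over HSC-derived microglia 15 were higher and none lower. Of all tested genes 19.0% and 5.75% were higher in these comparisons. F13a1, a coagulation factor subunit, rose by 4.39 (adjusted p = 5.3e-19 by edgeR) and by 3.74 (adjusted p = 4.2e-15) in these comparisons, and Ccr2, the chemokine receptor of classical monocytes, by 3.39 (adjusted p = 3.2e-17) and 1.87 (adjusted p = 5.9e-08). Over host microglia, 17 were higher in monocyte-derived and 16 in HSC-derived microglia, and none was lower, against 15.1% and 16.3% of all tested genes higher. Of 7 dendritic cell markers in the table (of 10 listed), 4 were higher and 2 lower in monocyte-derived leptomeningeal macrophages than in monocyte-derived microglia. Of all tested genes 19.0% were higher and 16.3% lower there. Clec9a (3.44, adjusted p = 7.7e-07 by edgeR), Ccr7 (3.30, adjusted p = 3.0e-06) and Flt3 (2.24, adjusted p = 3.0e-06) were among the higher markers. Over host microglia 3 of the 7 markers were higher in monocyte-derived and 4 in HSC-derived microglia, against 15.1% and 16.3% of all tested genes. Their summed level was 414 to 454 CPM in monocyte-derived and 610 and 362 CPM in HSC-derived leptomeningeal libraries. It was 244 to 268 CPM in monocyte-derived, 154 to 290 CPM in HSC-derived and 192 to 209 CPM in host microglia. Ccr7 was at 0 in host microglia. In microglia these sums were mostly 1 gene, Tcf4. It had 199.5 to 231.7 CPM in monocyte-derived, 107.6 to 195.5 CPM in HSC-derived and 161.4 to 167.5 CPM in host microglia. In monocyte-derived leptomeningeal libraries Tcf4 had 127.5 to 218.5 CPM, and in HSC-derived ones 164.9 and 115.5 CPM. The sum is therefore not read as an amount of dendritic cells. The part of dendritic cells in the list's changes was not tested. Mgst1, a microsomal glutathione transferase, led in monocyte-derived microglia with 6.46 (adjusted p = 4.5e-18).

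By origin few genes of the list were called. Between the leptomeningeal groups 1 of 19, Msrb1, a methionine sulfoxide reductase, was higher in monocyte-derived cells (1.36, adjusted p = 0.0335 by edgeR), and none was lower. Of all tested genes 0.16% were higher and 0.142% lower there. In monocyte-derived compared with HSC-derived microglia none of the 19 was higher and 4 were lower, against 0.123% of all tested genes higher and 1.76% lower. Among the lower ones were Ccr2 (-1.21, adjusted p = 0.000517 by edgeR), F13a1 (-1.16, adjusted p = 0.00162) and Lgals3, galectin 3 (-1.13, adjusted p = 0.00702). Ccr2 averaged 48.0 ± 6.99 CPM in monocyte-derived and 109 ± 15.3 CPM in HSC-derived microglia (SD, n = 4 each). In this list 2 genes had a larger compartment difference in monocyte-derived than in HSC-derived cells, Ccr2 (1.51, adjusted p = 0.0163 by edgeR) and Lgals3 (1.67, adjusted p = 0.0367). Of all tested genes 0.0566% did so. Neither Ccr2 nor Lgals3 kept this call under every alternative. Both calls rest on 2 HSC-derived leptomeningeal libraries, where Ccr2 had 486 and 277 CPM and Lgals3 319.5 and 138.6 CPM.

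Of 15 other genes of non-classical monocytes 14 were tested. In monocyte-derived leptomeningeal macrophages over monocyte-derived microglia 12 were higher and none lower, with a median log2 fold change of 1.94. Of all tested genes 19.0% were higher and 16.3% lower there. In HSC-derived leptomeningeal macrophages over HSC-derived microglia 4 of the 14 were higher and 1 lower, against 5.75% of all tested genes higher and 3.97% lower. None of the 14 was called between the origins in either compartment. Spn, the sialophorin CD43 of non-classical monocytes, rose in leptomeningeal macrophages by 2.68 among monocyte-derived cells (adjusted p = 4.1e-09 by edgeR) and by 1.97 among HSC-derived cells (adjusted p = 0.0103). Treml4, a receptor of the same monocytes, was higher in monocyte-derived leptomeningeal macrophages than in monocyte-derived microglia by 2.38 (adjusted p = 1.9e-05). Its count ratio between monocyte-derived and HSC-derived leptomeningeal macrophages was 14.01 (exact 95% counting interval 2.46 to 558) and did not pass (adjusted p = 0.0944 by edgeR). Over host microglia, 6 of the 14 were higher and 3 lower in monocyte-derived microglia, where 15.1% of all tested genes were called in each direction. In HSC-derived microglia 4 were higher and 3 lower, against 16.3% of all tested genes higher and 13.1% lower. No result about the list is read from these counts over host microglia, which go both ways.

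The genes whose pattern was most like that of each member were taken by Pearson's r of log2 CPM over the 18 libraries, which share group, depth and sort, and r is given as a description. The nearest to Chil3 were Ly6a2 (0.988), Wfdc21 (0.986) and Camp (0.984), and those to Hp were S100a9 (0.965), S100a8 (0.957) and Camp (0.946). Ace was closest to Cd300e (0.929), Camp (0.894) and Ly6a2 (0.886). Ly6c2 was closest to the T cell surface gene Thy1 (0.962), Metrnl (0.940) and Adgre5 (0.939). Lyz2 was nearest to the MHC class II genes H2-Aa (0.985), H2-Eb1 (0.985) and H2-Ab1 (0.984), Plac8 to Slfn4 (0.948), Pglyrp1 (0.947) and Clec4e (0.943), Nr4a1 to S100a10 (0.982), Klf4 (0.977) and Gadd45b (0.974), and S100a4 to Cd44 (0.979), Emilin2 (0.975) and Cd209a (0.961). Among the members themselves r was highest between S100a4 and Nr4a1 (0.934) and between Chil3 and Hp (0.928), and lowest between Lyz2 and Ace (0.171).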

How the data were processed

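The deposited table gives each library as UMI counts and in normalized form; its whole-number counts, made by the authors, were used and the 42 other per-sample columns, among them 2 count columns that match no described sample, were not. Reads refer to mouse build mm10, per the submitters' processing notes; how reads were aligned and assigned to genes is not given in these sources. Groups come from the sample titles, which do not say whether replicates are separate mice, so p-values measure only the spread between these libraries, which may be technical.

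Low genes were dropped with filterByExpr (edgeR 4.0.16 and limma 3.58.1 in R 4.3.3), and all 18 libraries were fitted in 1 quasi-likelihood model with a term per group, TMM scaling and robust dispersion (common biological coefficient of variation 0.161). Tests were two-sided, adjusted by Benjamini-Hochberg over 10597 genes, with a threshold of 0.05. CPM are counts scaled to the TMM-adjusted library size. The SE is the absolute log2 fold change divided by the square root of the F statistic. Against a group without counts the fold is a bound taking 3 counts over the group; with 1 to 3 counts, the count ratio has an exact (Clopper-Pearson) 95% interval. Intervals and bounds cover counting error only. Alternatives were DESeq2 1.42.0, its size factors, no filter on low counts, fits of the compared groups, a replicate block, and libraries left out. The test was checked on simulated data. Promoter windows were aligned with Biopython 1.88.

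All members found are named. From each list of other genes, up to 3 called genes with the lowest p are named, and fixed defining markers. Members and lists were chosen with earlier results of these data known. Same-numbered libraries did not deviate together in every pair. Deviations within groups this small are tied to each other, so this check cannot decide whether same-numbered libraries share a mouse. The main fit did not pair libraries by number. No library was a copy of another.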

Additional observations from a re-analysis of the deposited data

Results flagged for a closer look

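In groups of 4 libraries, 3 of 27 levels tested had 1 library far from the other 3, by Dixon's criterion, where chance gives about 1 in 20. Ace in host microglia was lowest in replicate 1, at 2.15 CPM, with the other 3 between 4.92 and 5.46 CPM. Lyz2 in monocyte-derived microglia was highest in replicate 2, at 4227 CPM, with the other 3 between 3762 and 3830 CPM. Chil3 in monocyte-derived microglia was highest in replicate 2, at 3.31 CPM, with the other 3 between 0.576 and 0.798 CPM, each from 1 count.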

How the results depend on the processing

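Of 827 single values of the members in alternatives, 37 changed their call, 18 losing and 19 gaining one. Another 25 changed direction, none of them called in either fit. Without 1 library the log2 fold change ran from -0.449 to 0.146 for Ace in monocyte-derived over host microglia, and from -0.406 to 0.235 for Nr4a1 and -0.49 to 0.201 for S100a4 in monocyte-derived over HSC-derived microglia. Between the leptomeningeal groups it ran from -0.024 to 0.373 for Lyz2 and from -0.743 to 1.42 for S100a4, and in HSC-derived leptomeningeal macrophages over HSC-derived microglia from -4.441 to 3.115 for Plac8. The difference of compartment differences ran from -0.086 to 1.219 for Ly6c2, -1.759 to 4.415 for Hp, -0.2 to 7.356 for Plac8 and -0.54 to 1.711 for S100a4. With a replicate block that difference was -0.098 for Plac8 and 0.079 for S100a4, and without the 3 shallow libraries -0.206 for Plac8. All 8 members were called in monocyte-derived leptomeningeal macrophages over monocyte-derived microglia under every alternative run. In HSC-derived over host microglia 4 were called, 1 in a fit of the compared groups alone (which tested 2 members), and 2 to 5 when 1 library was left out. Between monocyte-derived and HSC-derived microglia the count of 0 became 1 with DESeq2, also without its filter on mean counts (an alternative chosen after seeing the data), and 0 to 2 when 1 library was left out. Between the leptomeningeal groups 3 were called, 0 with DESeq2 (whose filter left 3 members with an adjusted p), 4 with DESeq2 without that filter, and 0 to 5 when 1 library was left out. In HSC-derived leptomeningeal macrophages over HSC-derived microglia 4 were called, 0 in a fit of the compared groups alone (4 members tested), and 0 to 4 when 1 library was left out. With a replicate block 6, 4, 0, 4, 8 and 5 members were called, in the order monocyte-derived over host, HSC-derived over host, monocyte-derived over HSC-derived microglia, the leptomeningeal groups, and leptomeningeal over microglia for monocyte-derived and for HSC-derived cells; same-numbered libraries correlated between -0.467 and 0.49. Counts over all genes ran from 2068 to 3261 (3114 as reported), 20 to 555 (200), 12 to 90 (32), 205 to 1460 (1030) and 0 to 49 (6) over the alternatives in HSC-derived over host microglia, between the donor-derived microglia, between the leptomeningeal groups, in HSC-derived leptomeningeal macrophages over microglia, and for the interaction. Where no cause is named, the cause was not tested. Depth limits the HSC-derived groups, in which 3 counts over the group stood for 1.59 CPM in microglia and 4.21 CPM in leptomeningeal macrophages.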
